A study of Homo sapiens with 8 samples.

Results

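The genes described here are 6 core components of the Hedgehog pathway, GLI1, GLI2, GLI3, PTCH1, SMO and SUFU, chosen by symbol from the count table of a human rhabdomyosarcoma line. All 6 symbols were among the 22808 genes of the table, and 5 of them were among the 12366 genes with enough reads to be tested. RD18 is a line of fusion-negative rhabdomyosarcoma, a childhood soft tissue tumour of the skeletal muscle lineage that lacks the PAX-FOXO1 fusion gene. One group of 4 libraries came from cells given only the transfection reagent lipofectamine (vehicle), and the other 4 from cells transfected with the microRNAs miR-449a and miR-340-5p together. All were taken at 60 h. The vehicle cells received no control RNA, neither microRNA was given alone in these samples, and 1 line was used.

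In the Hedgehog pathway, a secreted ligand binds the receptor PTCH1, which without ligand keeps the transducer SMO inactive. Active SMO collects in the primary cilium and frees the GLI transcription factors from the inhibitor SUFU. GLI2 acts mainly as an activator and GLI3 mainly as a repressor, while GLI1 is itself a target gene, as is PTCH1, so that both serve as common readouts of pathway activity. The pathway patterns the embryonic somites that give rise to skeletal muscle, and mice with a mutated Ptch1 allele are prone to rhabdomyosarcoma.

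The transfected microRNAs pair with messenger RNAs mainly through their seed, bases 2 to 8, which is in capitals in the mature RefSeq sequences (GRCh38.p14) shown here because the 3′ UTRs of the members were searched for their complements.
miR-449a: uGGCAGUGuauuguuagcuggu
miR-340-5p: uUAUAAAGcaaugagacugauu
The words that pair with these seeds, CACTGCC (miR-449a) and CTTTATA (miR-340-5p), were read on the sense strand of each transcript only. None of the 6 members held the miR-449a word in its longest GENCODE 29 3′ UTR, and 1 of them, PTCH1, held the miR-340-5p word. Among 10525 tested genes with a 3′ UTR of at least 50 bases, 17.9% held the first word and 19.9% the second. The PTCH1 word starts at base 456 of a 3′ UTR of 3500 bases and is followed by an A, opposite base 1 of the microRNA. The window of the word and its flanking bases lies at chr9:95446449-95446471 on the minus strand (GRCh38). It is shown with the word in capitals.
PTCH1 with miR-340-5p: ctgcctgcttttgtaCTTTATAa
The 3′ UTRs of GLI1, GLI2, GLI3, SMO and SUFU are 201, 1978, 3380, 1094 and 3380 bases long and held neither word. A word is a match of letters and not a shown binding site.

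Library totals ran from 2567737 to 5569342 counts, of which 391 to 898 were counts of the 6 members. Within groups the log2 CPM values of the libraries correlated at 0.973 or more, and between groups at 0.857 or less. CPM here is counts per 1000000 counts of the library after TMM scaling, which makes the typical tested gene equal between libraries. Of 7 listed markers of the muscle tumour lineage, 6 (MYOD1, MYOG, DES, CHRNA1, PAX7 and FGFR4) were in the table, and their summed level was 1206 to 1241 CPM in vehicle and 800.4 to 832.1 CPM in treated libraries. Most of that sum was CHRNA1 (814.3 ± 16.5 and 624 ± 16.0 CPM), which fell 1.31-fold. DES fell 1.58-fold, PAX7 1.76-fold, MYOD1 1.88-fold and FGFR4 5.16-fold. MYOG fell from 10.4 ± 1.89 to 0.646 ± 0.372 CPM, 13.8-fold, having reached the count minimum only in vehicle. Leukocyte markers summed to 1.26 to 2.76 CPM in vehicle and 1.72 to 2.39 CPM in treated libraries, epithelial markers to 0 to 0.418 and 1.02 to 2.58 CPM, and endothelial markers to 0 to 0.674 and 0 to 1.29 CPM, while the fibroblast list (COL1A1, THY1 and LUM) summed to 142.1 to 142.7 CPM in vehicle and 195.2 to 219.9 CPM in treated libraries. The fibroblast markers did not go one way: COL1A1 rose from 97.7 ± 5.66 to 168 ± 11.5 CPM, THY1 was not called (37.2 ± 4.598 and 36.4 ± 3.09 CPM), and LUM fell from 7.55 ± 1.98 to 0.300 ± 0.354 CPM, having reached the count minimum only in vehicle. The part of these shifts in the Hedgehog values was not tested. These are bulk samples, in which fewer cells of a type and less RNA per cell cannot be told apart.

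The 5 tested core Hedgehog genes differed little between treated and vehicle cells. GLI3 was slightly higher in treated cells, PTCH1 and SMO were slightly lower, and no difference was called for GLI2 and SUFU. No tested member changed 2-fold, and GLI1 had too few reads to be tested. The 3 calls among 5 tested members (1 higher and 2 lower, edgeR quasi-likelihood test, adjusted p under 0.05) stand beside 67.3% of all tested genes called, 33.4% higher and 34.0% lower, so the share of members called is near the background. Of all tested genes, 25.6% were called with a change of at least 2-fold.

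PTCH1, the ligand receptor and negative regulator of the pathway (ENSG00000185920.15, chr9:95442980-95517057, minus strand), measured 17.99, 27.96, 26.3 and 22.6 CPM in vehicle replicates 1 to 4 and 17.8, 15.9, 18.6 and 20.3 CPM in the treated replicates. Vehicle replicate 1 lay among the treated libraries, and the other vehicle libraries were above all of them. The means were 23.7 ± 4.42 and 18.1 ± 1.84 CPM (SD, n = 4). PTCH1 fell by 0.43 on the log2 scale (SE 0.15, 95% interval -0.73 to -0.13, edgeR adjusted p = 0.0104), which is 1.35-fold lower.

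SMO, the seven-pass membrane protein that PTCH1 holds in check (ENSG00000128602.9, chr7:129188872-129213545, plus strand), measured 26.4, 24.3, 23.1 and 18.1 CPM in vehicle and 15.4, 21.2, 16.9 and 16.7 CPM in treated libraries. The groups overlapped through vehicle replicate 4 and treated replicate 2. SMO fell from 23.0 ± 3.52 to 17.6 ± 2.49 CPM, by 0.36 on the log2 scale (SE 0.15, 95% interval -0.67 to -0.05, edgeR adjusted p = 0.0353), or 1.28-fold. Its adjusted p was 0.0711 with DESeq2 and 0.0717 with upper-quartile scaling.

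SUFU, which binds GLI proteins in the cytoplasm and restrains them (ENSG00000107882.11, chr10:102503987-102633535, plus strand), measured 18.8, 16.8, 20.7 and 20.1 CPM in vehicle and 23.6, 19.3, 22.7 and 20.6 CPM in treated libraries. The groups overlapped, and the means were 19.1 ± 1.70 and 21.6 ± 1.97 CPM. No difference was called (log2 fold change 0.17, SE 0.15, 95% interval -0.13 to 0.46, edgeR adjusted p = 0.322).

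GLI3, the factor best known as the repressor of the family (ENSG00000106571.13, chr7:41960950-42237870, minus strand), had the most counts of the members, from 200 to 524 in a library. It measured 83.7, 68.9, 82.6 and 80.9 CPM in vehicle and 92.0, 89.4, 88.5 and 91.4 CPM in treated libraries. Every treated library was above every vehicle library, which also held for either direction in 58.9% of tested genes and as higher in 29.2%. GLI3 rose from 79.0 ± 6.86 to 90.3 ± 1.65 CPM, 1.146-fold (log2 fold change 0.20, SE 0.08, 95% interval 0.03 to 0.37, edgeR adjusted p = 0.037). Vehicle replicate 2 was the lowest library, and without it the log2 fold change was 0.13 (adjusted p = 0.204).

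GLI2, the main activator (ENSG00000074047.21, chr2:120735623-120992653, plus strand), measured 14.2, 6.21, 5.84 and 9.04 CPM in vehicle and 7.99, 6.82, 9.30 and 9.98 CPM in treated libraries. The treated libraries lay inside the vehicle range, whose upper end was vehicle replicate 1. The means were 8.83 ± 3.87 and 8.52 ± 1.40 CPM, with no difference called (log2 fold change -0.01, SE 0.25, 95% interval -0.51 to 0.48, edgeR adjusted p = 0.970). Without vehicle replicate 1 the log2 fold change was 0.24 (adjusted p = 0.415).

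GLI1, the target gene and amplifier of the pathway (ENSG00000111087.9, chr12:57460135-57472262, plus strand), had 6, 8, 5 and 5 counts in vehicle and 8, 4, 4 and 7 counts in treated libraries. That is 1.74 ± 0.663 and 1.43 ± 0.643 CPM, below the count minimum of the test. Over the groups it had 24 and 23 counts, a ratio of treated to vehicle of 0.804 with an exact 95% interval from 0.434 to 1.49 that covers counting error only. A difference of that size was not detectable at this depth, and with no filter on low counts the adjusted p was 0.739 (edgeR).

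**Figure D1:**
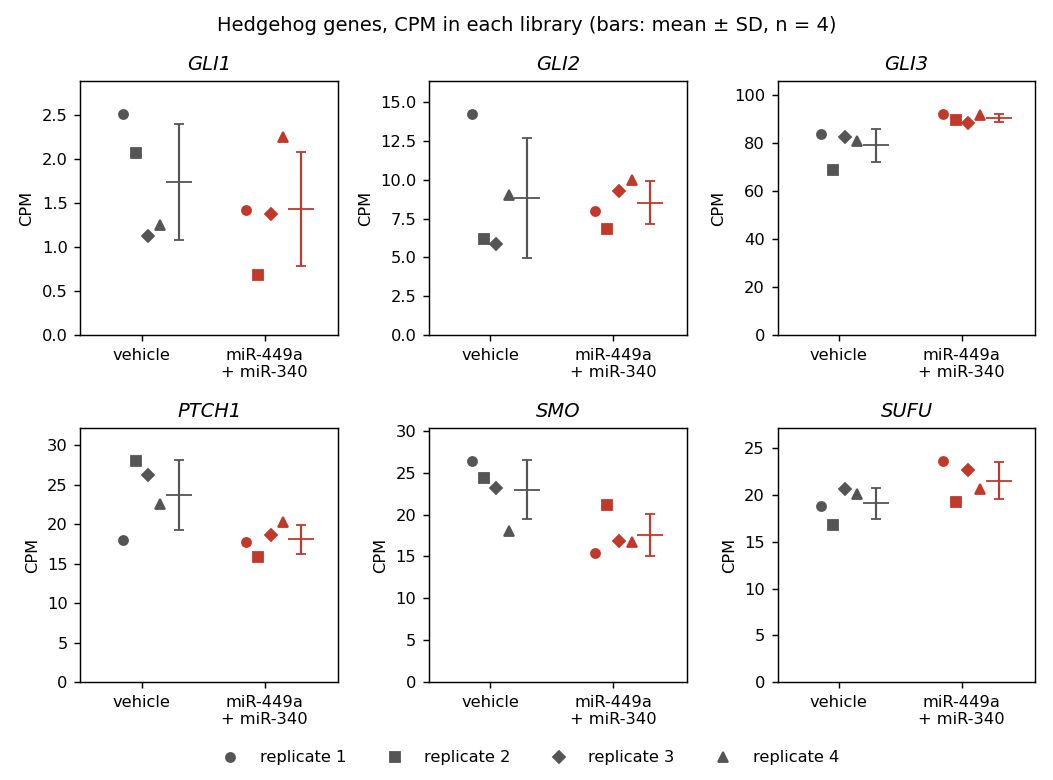
Level of each of the 6 Hedgehog genes in CPM (linear axes from 0), with 1 marker per library by replicate number and the mean ± SD of 4 libraries beside them. GLI3 is the member without overlap, at 68.9 to 83.7 CPM in vehicle and 88.5 to 92.0 CPM in treated libraries.

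Levels were set side by side per length, as CPM per kilobase of the longest protein-coding transcript in GENCODE 29. In vehicle cells the order ran from GLI3 (9.63 ± 0.836, SD, n = 4) through SMO (6.15 ± 0.942), SUFU (3.82 ± 0.340), PTCH1 (2.88 ± 0.537) and GLI2 (1.30 ± 0.569) to GLI1 (0.482 ± 0.183). SUFU and PTCH1 were the neighbours whose libraries overlapped, at 3.37 to 4.13 and 2.19 to 3.40 CPM per kilobase. In treated cells the order by this length was the same, from GLI3 at 10.8 to 11.2 CPM per kilobase, through SMO (4.70 ± 0.665), SUFU (4.31 ± 0.395), PTCH1 (2.20 ± 0.223) and GLI2 (1.25 ± 0.206), to GLI1 at 0.397 ± 0.178. There SMO (4.13 to 5.66) overlapped with SUFU (3.86 to 4.72), and PTCH1 (1.93 to 2.46) lay below both. The factor with a mainly repressor role was thus the GLI gene with the most RNA per length in each library group. With the summed length of all annotated exons in place of the transcript, the means kept this order in vehicle, at 7.22 for GLI3, 5.33 for SMO, 2.78 for SUFU, 1.43 for PTCH1, 1.203 for GLI2 and 0.414 for GLI1. In treated cells this length put PTCH1 (1.09 ± 0.111) below GLI2 (1.16 ± 0.191), a difference within their SDs, so the order of these 2 genes there depends on the length used.

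Ratios between members within a library do not depend on scaling, and 3 were compared by exact two-sided permutation tests of 4 against 4 libraries, for which the smallest possible p is 0.0286. For each GLI3 count there were 0.172, 0.0919, 0.0719 and 0.113 GLI2 counts in vehicle replicates 1 to 4 and 0.0878, 0.0772, 0.107 and 0.111 in treated ones. The log2 ratio was -3.23 ± 0.53 in vehicle and -3.40 ± 0.24 in treated libraries (exact permutation p = 0.629, n = 4). The groups overlapped, with vehicle replicate 1 the highest library.

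For SMO to PTCH1 the ratio was 1.46, 0.871, 0.881 and 0.801 in vehicle and 0.871, 1.33, 0.908 and 0.827 in treated libraries. The means of the log2 ratio were -0.04 ± 0.39 and -0.05 ± 0.31, a difference of -0.01 that was smaller than the spread between replicates (exact permutation p = 0.914, n = 4). SUFU to the sum of GLI2 and GLI3 was -2.19 ± 0.12 in vehicle and -2.20 ± 0.12 in treated libraries on the log2 scale (exact permutation p = 0.971, n = 4). Adjusted over the 3 ratios, each p was 0.971. In a linear ratio that is 0.219 and 0.218 SUFU counts per count of these GLI factors.

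**Figure D2:**
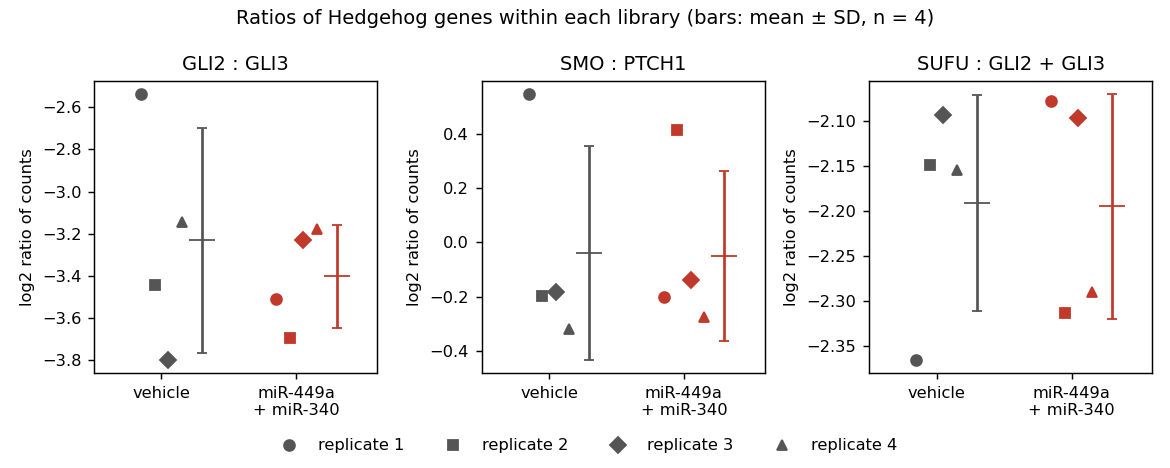
Log2 ratio of read counts between members in each library (vertical axes do not start at 0), with 1 marker per library and the mean ± SD of 4 libraries beside them. The groups overlap in all 3 ratios, and vehicle replicate 1 is the highest library for GLI2 to GLI3 and for SMO to PTCH1.

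The calls of the 3 members were close to the threshold. Without vehicle replicate 2 none of them passed (GLI3 adjusted p = 0.204, PTCH1 0.0545 and SMO 0.0823, edgeR). GLI3 was also lost without treated replicate 1 (0.0755) or 2 (0.051), and PTCH1 without treated replicate 2 (0.0555). SMO was lost as well without vehicle replicate 1 (0.0953) or 3 (0.0638) and without treated replicate 1 (0.135), 3 (0.0601) or 4 (0.0669). With library size as the only scaling, which raised the median of all tested genes by 0.14 log2 units, neither PTCH1 (-0.29, adjusted p = 0.0866) nor SMO (-0.22, adjusted p = 0.204) passed, and GLI3 was at 0.33. PTCH1 and SMO stayed below 0 and GLI3 and SUFU above 0 in the 8 fits without 1 library and in the 9 fits with another tool, scaling, filter, gene set or block, while GLI2 changed sign.

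**Figure D3:**
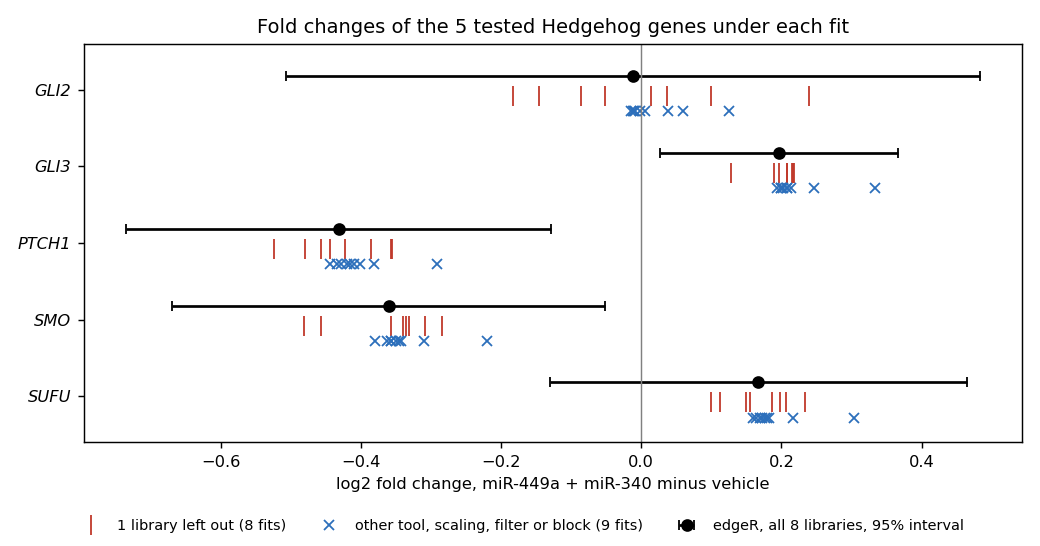
Log2 fold change, treated minus vehicle, of the 5 tested members: the black dot and bar give the edgeR estimate with its 95% interval, red ticks the 8 fits without 1 library, and blue crosses the 9 fits with another tool, scaling, filter, gene set or block. The intervals lie within -0.73 and 0.48, and the estimates of GLI2 fall on both sides of 0.

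By size of change the members ranked low among all tested genes. The share of tested genes with a smaller change in either direction was 1.27% for GLI2, 16.1% for SUFU, 19.0% for GLI3, 33.4% for SMO and 39.4% for PTCH1. By mean CPM, 83.0% of tested genes were lower than GLI3 and 24.4% lower than GLI2, with PTCH1, SMO and SUFU at 47.6%, 46.7% and 46.9%. The 95% interval of each of the 5 fold changes excluded a 2-fold difference in either direction.

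The genes whose log2 CPM profile over the 8 libraries came nearest to each member, among 10752 with at least 5 CPM, had fold changes of -0.48 (AP3S2) to 0.21 (CHMP2B) on the log2 scale. The profiles include the difference between groups, so fold changes near those of the members follow from the choice. GLI3 was nearest to SURF2 and CHMP2B, with a root mean square distance of 0.04 log2 units for each. SUFU was nearest to NUP133 (0.04) and RPAP3 (0.05). PTCH1 was nearest to AP3S2 (0.09) and PLA2G12A (0.10), and SMO to MYL6B and ANK3, each at 0.10. GLI2 was farther from its nearest genes, ZNF595 at 0.14 and SLC6A16 at 0.17. Genes in general also lay farther from GLI2, with a 5th percentile of distance of 0.36, beside 0.13 (GLI3) to 0.21 (PTCH1) for the other members.

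Some genes that make, release or help to receive the ligand were called with at least a 2-fold change. So were 25.6% of all tested genes. SHH, IHH and SCUBE1 were not among the gene symbols of the count table, and DHH had 3 counts in vehicle and 0 in treated libraries. Of 9 listed genes of ligand production, 3 were tested, and DISP1 and SCUBE3 reached the count minimum only in vehicle libraries, so their number is no support. HHAT reached it in 2 vehicle and 4 treated libraries, so it was tested through its treated level and is no support either. HHAT, the acyltransferase that lipid-modifies the ligand, measured 0.418, 1.04, 2.69 and 2.51 CPM in vehicle and 16.7, 11.9, 15.8 and 7.08 CPM in treated libraries and rose 7.07-fold (log2 fold change 2.82, SE 0.32, edgeR adjusted p = 3.37e-11). DISP1, which releases the ligand from the producing cell, fell from 5.93 ± 1.67 to 1.19 ± 0.256 CPM, and SCUBE3, a secreted protein of the family that aids that release, from 4.69 ± 1.203 to 1.45 ± 0.181 CPM.

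All 3 tested co-receptors, of 10 listed surface genes, were called lower in treated cells, as were 34.0% of all tested genes. GAS1, a membrane-anchored co-receptor that presents ligand to PTCH1, measured 192.4, 185.4, 194.0 and 203.2 CPM in vehicle and 23.1, 19.96, 22.7 and 33.2 CPM in treated libraries, and fell 8.05-fold (log2 fold change -3.01, SE 0.10, edgeR adjusted p = 8.8e-35). CDON, an immunoglobulin-family co-receptor also known for promoting muscle differentiation, fell from 105 ± 3.58 to 33.9 ± 2.21 CPM, 3.08-fold. Its relative BOC fell from 39.8 ± 3.18 to 25.5 ± 5.24 CPM, 1.55-fold. The groups did not overlap for any of the 3, as was so in 29.7% of tested genes in that direction. The ligand-binding inhibitor HHIP, another known target of the pathway, had 1 count in vehicle and 7 counts in treated libraries, too few to test.

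The 3′ UTRs of the co-receptors were read in the same way. GAS1 held 1 miR-449a word, at base 783 of 1379, in the window chr9:86944952-86944974 (minus strand). CDON held 2 miR-340-5p words, the first at base 2314 of 5146, in the window chr11:125958621-125958643 (minus strand). BOC held neither word. The windows are shown because GAS1 and CDON are the surface genes with the largest falls, so they were picked by their values. Words also stood in other named list genes that fell: CDK6, SCUBE3 and ZIC5 held both, and CCND1 and PRKAR2A the miR-340-5p word. Of the named list genes that rose, IQCE held both, SOX9 and CSNK1G1 the miR-449a word, and KIF3A the miR-340-5p word. PRKACA and ZIC1, which fell, held neither, nor did HHAT, STK36, KIF7, SMURF2, CSNK1D, KIF3B, DYNC2LI1, IFT81, ZIC2 and GLIS3, which rose. Whether words and direction go together was not tested.
GAS1 with miR-449a: tttaaaaaagctctgCACTGCCa
CDON with miR-340-5p: atttataaaaaatgcCTTTATAt

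**Figure D4:**
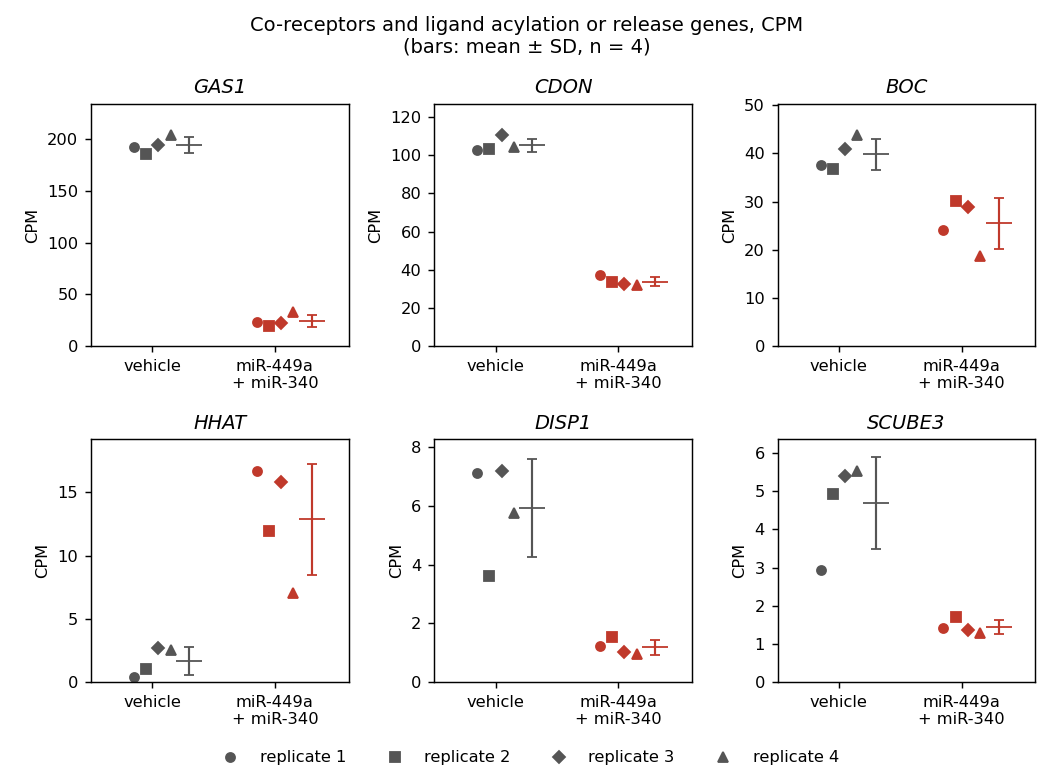
Level in CPM (linear axes from 0) of the tested co-receptor genes GAS1, CDON and BOC and of HHAT, DISP1 and SCUBE3, with 1 marker per library and the mean ± SD of 4 libraries. DISP1 and SCUBE3 were tested only because of their vehicle level and HHAT because of its treated level, so their separation is no support. GAS1 goes from 185.4 CPM or more in vehicle to 33.2 CPM or less in treated libraries.

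Between SMO and the GLI factors, genes were called in both directions, at shares to be read beside the 33.4% higher and 34.0% lower of all tested genes. Of 16 tested genes of SMO trafficking and ciliary signalling, 8 were higher and 3 lower, and the 68.8% called is near the 67.3% of all tested genes (median 0.21, against 0.00 over all tested genes). Examples of those that rose are STK36, a kinase homologous to fly Fused (2.66-fold), KIF7, the ciliary kinesin that regulates GLI processing (8.80 ± 2.38 to 20.2 ± 2.63 CPM, 2.31-fold), IQCE, which anchors the EVC complex at the ciliary base (2.28-fold), and the ubiquitin ligase gene SMURF2 (2.07-fold). Of 28 tested kinases, ubiquitin ligases and cofactors of GLI proteins, 12 were higher and 9 lower, 75% called beside that 67.3% (median 0.13). PRKACA, the catalytic subunit of protein kinase A, which phosphorylates GLI2 and GLI3 for processing, fell from 47.7 ± 2.07 to 14.9 ± 2.98 CPM, 3.19-fold, and the regulatory subunit gene PRKAR2A fell 1.495-fold. PRKACB, the other widely expressed catalytic subunit, named here after its values were seen, rose from 17.7 ± 3.86 to 32.1 ± 2.37 CPM. The casein kinase genes CSNK1G1 and CSNK1D rose 1.87-fold and 1.74-fold.

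Genes of intraflagellar transport, the motor-driven traffic on which ciliary Hedgehog signalling depends, were mostly higher. Among the 24 tested, 16 were called higher and 2 lower, beside 33.4% and 34.0% of all tested genes, and the list had a median of 0.95 beside 0.00 over all tested genes. DYNC2LI1, a subunit of the retrograde dynein motor, rose from 15.7 ± 0.455 to 100.4 ± 7.19 CPM, 6.38-fold. KIF3A and KIF3B, the motor subunits of the anterograde kinesin, rose 3.59-fold and 3.36-fold, and IFT81, a particle subunit, 3.26-fold. The 2 that fell, named after their values were seen, were TTC21B (2.07-fold) and KIFAP3 (1.62-fold), the accessory subunit of the KIF3 motor.

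Genes reported elsewhere to respond to GLI factors showed no common direction. Of 40 listed, 20 were tested, 6 rose, 7 fell and 7 were not called, so that 65% were called beside 67.3% of all tested genes, with a median of 0.10 that turned to -0.19 with no filter on low counts. Of those that rose, FOXF1 (named after its values were seen) reached the count minimum only in treated libraries, so its place in the count is no support. CDK6 fell 3.24-fold and CCND1, cyclin D1, 1.85-fold, while SOX9, a transcription factor of cartilage and progenitor cells, rose from 7.97 ± 0.998 to 51.7 ± 7.29 CPM, 6.60-fold. GAS1, CDON and BOC are genes that Hedgehog activity is known to lower, and GAS1 and BOC are counted in this list too. Among 6 tested relatives of the GLI zinc finger genes, 4 were called, 66.7% beside 67.3% of all tested genes. ZIC1 fell 1.76-fold and ZIC5 2.03-fold, and ZIC2 rose 1.39-fold and GLIS3 1.54-fold. ZIC5 reached the count minimum in 4 vehicle and 2 treated libraries, so it was tested through its vehicle level and its place in the count is no support. The call of ZIC5 was lost without treated replicate 2 (edgeR adjusted p = 0.0646).

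**Figure D5:**
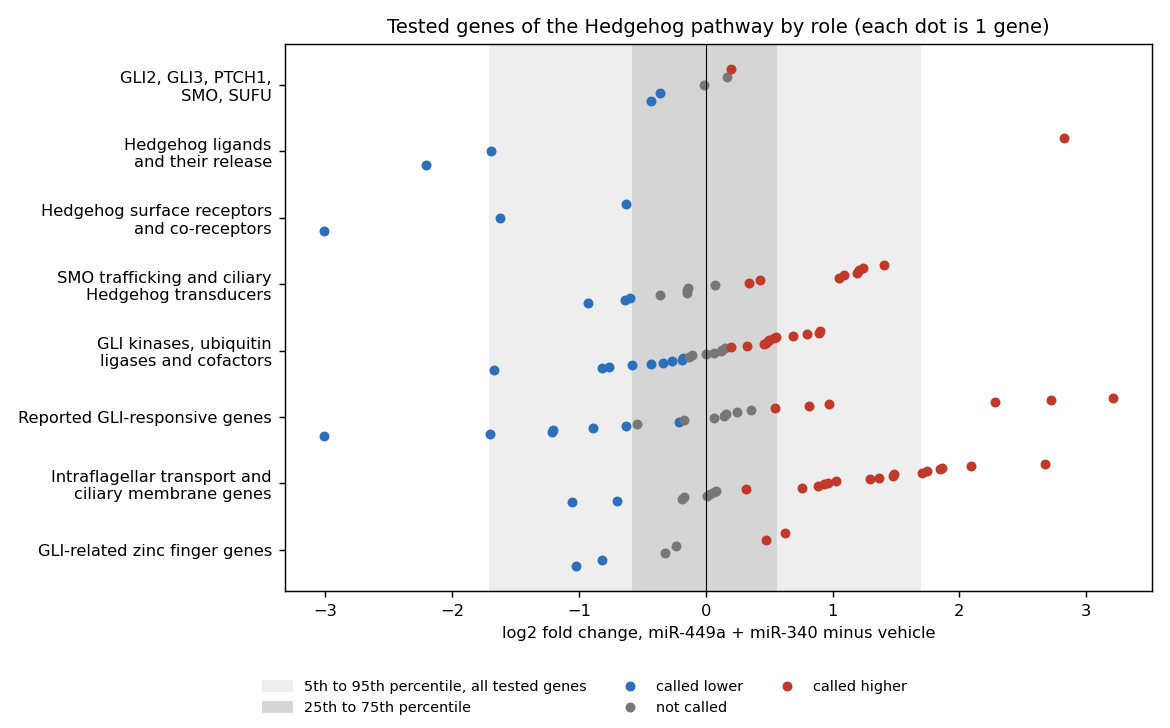
Log2 fold change, treated minus vehicle, of every tested gene of the core members and of 7 lists of the pathway, 1 dot per gene, coloured by call (edgeR adjusted p under 0.05). Dark and light bands hold the middle of all tested genes, from the 25th to the 75th percentile (-0.58 to 0.56) and from the 5th to the 95th (-1.70 to 1.69), and the 5 core members lie inside the dark band.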

How the data were processed

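The deposited table holds raw counts of reads by gene symbol for the 8 libraries of polyadenylated RNA. The submitters' processing notes list HTSeq 0.5.3p3, TopHat2 2.0.13, SAMtools 0.1.19.24 and DESeq2 with build GRCh38 and give no role for them. No source used here gives the annotation or strand setting. Exons of other genes cover up to 4.29% of a member's exonic bases (PTCH1), so reads may be shared. Columns were matched by the library code in the labels.

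Genes passing filterByExpr (minimum count 10, minimum total 15) were TMM-scaled, and the quasi-likelihood test of edgeR 4.0.16 was run under R 4.3.3 (robust glmQLFit, glmQLFTest, two-sided, Benjamini-Hochberg over all tested genes, threshold 0.05). Standard errors were obtained by dividing each log2 fold change by the root of its F statistic. The test was also run on simulated data with few changed genes and the same relative spread for every gene. That run does not check scaling or error rates where most genes are called, as here. Ratios had 0.5 added to each count. Replicate pairs differed by a chi-square per gene of 2.21 to 5.89 (genes with 20 counts or more), where sampling noise gives about 1, so all were kept. Nothing says that replicates were separate cultures, so the p-values reflect sample-to-sample spread that may be purely technical.

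Members and lists were chosen with earlier results of these data known. Named genes are all members, up to 4 per list by adjusted p (mean CPM 1 or more) and the 2 nearest profiles per member. Alternatives were DESeq2 1.42.0, limma-voom (limma 3.58.1), 3 scalings, 2 filters, a replicate block, a threshold of 0.01, removal of mitochondrial genes and leaving out each library. Gene coordinates, lengths and 3′ UTRs come from GENCODE 29 (GRCh38).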

Additional observations from a re-analysis of the deposited data

Results flagged for a closer look

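In 4 of 88 groups of 4 libraries 1 library stood far from the others by Dixon's test (95% level), where chance gives about 1 in 20. The log2 ratio of SMO to PTCH1 was 0.55 in vehicle replicate 1 and -0.32 to -0.18 in the other vehicle libraries. GLIS3 was at 9.20 CPM in vehicle replicate 1 and at 12.7 to 13.1 CPM in the others. SMURF2 was at 102.7 CPM in treated replicate 4 and at 83.1 to 85.4 CPM in the others. IFT81 was at 157.3 CPM in treated replicate 1 and at 146.9 to 147.4 CPM in the others.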

How the results depend on the processing

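Over all genes the count of calls stayed within 1.5 times of 8324 in every alternative. The 2 members called lower became 1 with DESeq2, upper-quartile scaling or no filter on low counts and 0 with library size only or a threshold of 0.01, which also left 0 called higher. Leaving out 1 library gave 0 to 2 lower and 0 to 1 higher. GLI2 was at 0.059 with limma-voom, 0.038 with upper-quartile scaling, 0.12 with library size only, 0.0048 with no filter and -0.18 to 0.24 with 1 library left out. With library size only the median of all tested genes was 0.14, ZNF595 was at 0.018, SLC6A16 at 0.040, and 5 rather than 9 GLI kinase and cofactor genes were called lower. With 1 library left out, ZNF595 ran from -0.30 to 0.10, SLC6A16 from -0.24 to 0.12 and zinc finger relatives called lower from 1 to 2. The median of the GLI-responsive list was -0.19 with no filter, -0.20 with at least 1 CPM in 4 libraries, which test more of its genes, and -0.11 to 0.15 with 1 library left out. The differences in log2 ratio ran from -0.36 to 0.060 (GLI2 to GLI3), -0.17 to 0.18 (SMO to PTCH1) and -0.063 to 0.036 (SUFU to GLI2 plus GLI3) with 1 library left out. Apart from the larger tested set and the smaller groups, the cause was not tested. Replicate numbers pair nothing in the labels, deviations of same-numbered libraries correlated at 0.000912 to 0.0469, and not every library was nearest to its own number. With the replicate block the log2 fold changes were 0.20 for GLI3 (adjusted p = 0.0349), -0.40 for PTCH1 (0.0197) and -0.38 for SMO (0.0274), no member's call changed, and of the named genes AP3S2 lost its call (0.0636). Depth limits GLI1 most, at 4 to 8 counts per library.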
